A study of Mus musculus with 20 samples.

Results

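The genes described here belong to 3 oocyte families: the oogenesins Oog1, Oog2, Oog3 and Oog4 (Entrez IDs 193322, 381570, 100012 and 242737), the oocyte OAS1 genes Oas1c, Oas1d and Oas1e (114643, 100535 and 231699) and the oocyte secreted protein genes Oosp1, Oosp2 and Oosp3 (170834, 225922 and 225923). They were taken by symbol from the deposited count table, in which 10 of 39253 genes carry these names, and each name matched 1 gene. All 10 passed the filter on low counts, which left 17810 genes for testing.

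The mice were female CD-1, an outbred stock, and iodoacetic acid (IAA), a by-product of water disinfection, was given in the drinking water for 35 days from day 40 of life. Mice at 10 mg/L (n = 5) belonged to experiment 2 with 5 water controls, and mice at 500 mg/L (n = 5) to experiment 1, a month apart, with the other 5 water controls. At 75 days, in diestrus, 30 to 40 antral follicles of 220 to 400 µm were dissected from each mouse and pooled into 1 library, so a value describes 1 animal and not 1 follicle. The estimated counts of a library summed to between 39.9 M and 51.5 M reads for the mice given 10 mg/L, between 43.1 M and 67.5 M for those given 500 mg/L, and between 41.7 M and 51.0 M for the controls. The submitters combined both sets of controls when they compared the doses with controls.

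An antral follicle holds a single oocyte among a great many granulosa cells and a shell of theca cells, so oocyte mRNA is a small part of its RNA. During its growth the oocyte stores mRNA and protein that the embryo uses until its own genome is switched on. Oogenesins are leucine-rich repeat proteins of the PRAME family, made in oocytes and early embryos, and their genes lie among many close copies. OAS enzymes sense double-stranded RNA and make 2'-5' oligoadenylate, which switches on the ribonuclease RNase L, and most OAS genes are induced by interferon. Oas1c, Oas1d and Oas1e are mouse duplicates of that group found in the ovary, and OAS1D, which lacks the synthetase activity, is needed for normal fertility of female mice. OOSP proteins are small secreted proteins of the oocyte, related to the placental protein PLAC1.

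The promoters are shown first because those of the 4 oogenesins resemble each other. RefSeq promoter windows of the build GRCm38.p6, from 250 bases before to 50 bases after the start of each gene, were found for 7 of the 10 genes: the 4 oogenesins, Oas1c, Oosp1 and Oosp2. The oogenesin windows are printed 5' to 3' on the strand of the gene, at chr12:87602415-87602714 (plus strand) for Oog1, chr4:144190467-144190766 (plus strand) for Oog2, chr4:144162602-144162901 (minus strand) for Oog3 and chr4:143450275-143450574 (minus strand) for Oog4. Capitals mark the longest run that all 4 windows share, TTCAGCTGAAA, and the TATATA that follows it after 2 bases in each.
Oog1: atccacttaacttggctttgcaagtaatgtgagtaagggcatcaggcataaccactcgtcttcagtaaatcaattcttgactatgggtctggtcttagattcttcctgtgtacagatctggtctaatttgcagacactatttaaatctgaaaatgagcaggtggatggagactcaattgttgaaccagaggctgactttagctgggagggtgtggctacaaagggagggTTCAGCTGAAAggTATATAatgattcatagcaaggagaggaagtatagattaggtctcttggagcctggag
Oog2: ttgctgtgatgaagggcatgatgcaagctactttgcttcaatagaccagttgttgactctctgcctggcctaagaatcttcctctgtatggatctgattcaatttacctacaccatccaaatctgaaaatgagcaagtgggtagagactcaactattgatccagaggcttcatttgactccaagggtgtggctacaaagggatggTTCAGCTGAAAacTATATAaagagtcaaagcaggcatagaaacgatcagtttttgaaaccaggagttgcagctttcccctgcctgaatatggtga
Oog3: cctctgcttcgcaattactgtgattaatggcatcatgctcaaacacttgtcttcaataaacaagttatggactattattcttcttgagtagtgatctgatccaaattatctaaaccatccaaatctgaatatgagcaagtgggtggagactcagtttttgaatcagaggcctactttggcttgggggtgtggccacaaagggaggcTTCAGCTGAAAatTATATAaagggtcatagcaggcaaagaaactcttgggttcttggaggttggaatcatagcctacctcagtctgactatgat
Oog4: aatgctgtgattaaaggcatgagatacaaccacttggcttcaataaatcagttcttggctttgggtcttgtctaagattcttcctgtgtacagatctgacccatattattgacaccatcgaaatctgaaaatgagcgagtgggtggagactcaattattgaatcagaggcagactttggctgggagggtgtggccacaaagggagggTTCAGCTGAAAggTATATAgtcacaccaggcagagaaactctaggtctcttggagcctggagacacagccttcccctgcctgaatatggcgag

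In pairwise alignment the 4 oogenesin windows were 76.3% to 83.6% identical (6 pairs, median 78.3%), whereas the other 15 pairs among the 7 windows were 56.8% to 69.1% identical. Of those 15 pairs only Oosp1 and Oosp2, at 57.4%, come from the same family, and no pair of OAS1 windows could be compared. The shared run begins 43 to 45 bases before the start of Oog2, Oog3 and Oog4 and 21 bases before the start given for Oog1. It was found, on either strand, in 17 of 32851 promoter windows of that length, 0.0517% of them. Besides the oogenesins these windows belonged to 12 other genes, of which 3 are other PRAME family genes (Pramel23, Pramel26 and Pramel32) and the others are Gm2042, Pik3ip1, Kcnj13, Lcn15, Gm13403, Gm13404, Gm32920, Gm39204 and Gm34439. Of these 12 genes, 6 passed the filter on low counts, and the other 6 averaged at most 0.0408 CPM (counts relative to library size) over 20 mice. The core of the run, CAGCTG, is an E-box, the kind of site to which basic helix-loop-helix factors such as the oocyte factor FIGLA bind. CAGCTG alone is common, in 16.3% of all windows and also in that of Oosp2, and TATATA was in 5.67% of all windows. TAATTG, which the oocyte homeobox factor NOBOX can bind, was in the windows of Oog3 and Oog4 and in 8.00% of all, each motif being searched on both strands with overlaps allowed. A match of letters is a description of the window and shows no binding.

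Among the OAS1 genes only the Oas1c window could be read. It was searched for a pair of GAAA on 1 strand, 2 bases apart, the core of the element through which interferon acts on its target genes, which 3.44% of all windows hold on either strand. Oas1c was the 1 of the 7 windows with a match, on the strand opposite to the gene, 99 to 114 bases before its start. The stretch is printed with that of the interferon-induced gene Oas1a, where the run lies on the strand of the gene, 5 to 20 bases before its start, because the 16 bases in capitals, which hold 2 such overlapping pairs, are the same in both. The stretches are at chr5:120812591-120812650 (printed on the plus strand, Oas1c on the minus strand) and chr5:120907508-120907567 (printed on the minus strand), both in GRCm38.p6.
Oas1c: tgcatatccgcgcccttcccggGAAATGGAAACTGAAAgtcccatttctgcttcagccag
Oas1a: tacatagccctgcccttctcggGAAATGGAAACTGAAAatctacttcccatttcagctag

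All 10 genes were expressed in every mouse. Levels are given as CPM, the read count relative to the scaled total of its library, and the smallest count behind any of them was 44 reads for Oosp2 and 169 reads for the next lowest, Oosp3. Summed over the 10 genes the level was 187 ± 48.8 CPM at 10 mg/L and 202 ± 26.3 CPM in the controls of experiment 2, and 170 ± 41.6 CPM at 500 mg/L and 157 ± 32.3 CPM in the controls of experiment 1 (SD, n = 5 each). The groups of each experiment overlapped, and within each experiment the group means differed by less than the SD of either group. To compare genes with each other, the CPM were divided by the length of the longest coding transcript in GENCODE M21, in kilobases. Oosp1 came first with 17.8 ± 3.98 CPM per kb and Oas1e second with 17.1 ± 4.52 (SD, n = 20). These neighbours did not separate, since Oosp1 was above Oas1e in 12 of 20 mice. Oas1e was above Oog1, at 13.4 ± 4.78, in 14 of 20 mice, and Oog1 was above Oog3, at 13.0 ± 3.37, in 9 of 20. Oas1d at 12.3 ± 2.58 lay below Oog3 in 15 of 20 mice, so from Oog1 to Oas1d the order was within the spread. Oas1d exceeded Oas1c, at 9.65 ± 2.07 CPM per kb, in 20 of 20 mice, and Oas1c exceeded Oosp3, at 6.87 ± 1.46, in 20 of 20 as well. Oosp3 was above Oog4, at 5.38 ± 1.11, in 18 of 20 mice, Oog4 above Oog2, at 4.47 ± 1.54, in 14 of 20, and Oog2 above Oosp2, the lowest at 2.93 ± 0.965 CPM per kb, in 18 of 20. The order rests on the use of the longest transcript. With the shortest annotated coding transcript of each gene Oas1c, whose shortest has 416 bases, would come first at 53.2 CPM per kb, followed by Oosp1 at 34.9, Oas1e at 23.1, Oog1 at 22.4, Oog3 at 13.0, Oog2 at 12.8, Oas1d at 12.3, Oosp3 at 8.93, Oog4 at 5.86 and Oosp2 at 4.39. Oas1d was then below Oas1c, and Oosp2 was the lowest in both orders.

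**Figure D1:**
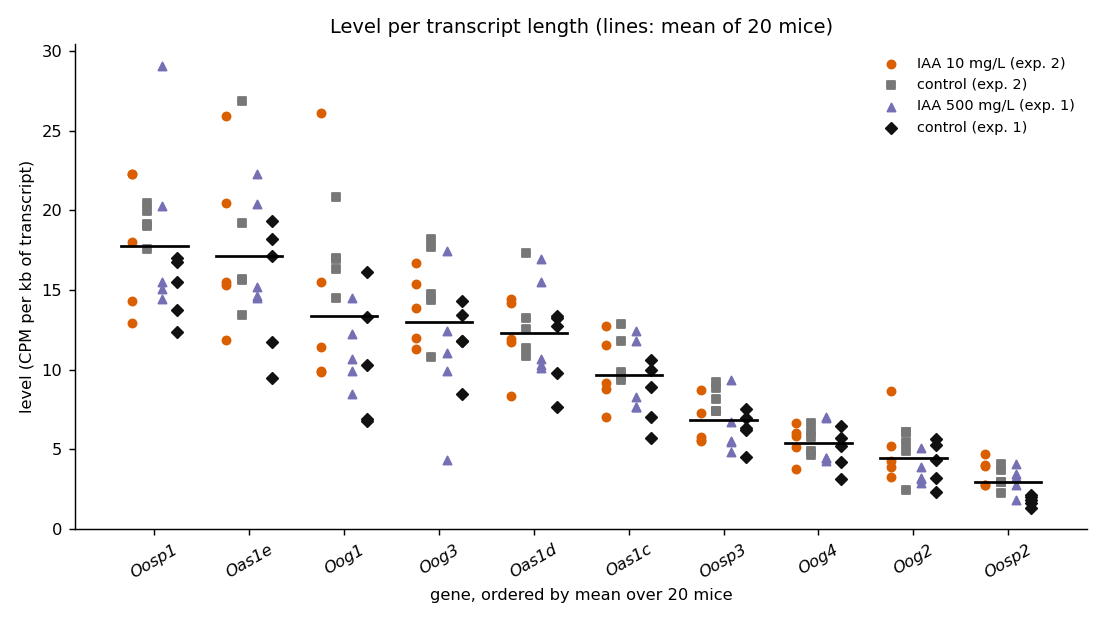
Level of each gene in CPM per kb of its longest coding transcript, ordered by the mean over 20 mice (lines), with 1 point per mouse for IAA 10 mg/L, controls of experiment 2, IAA 500 mg/L and controls of experiment 1. The means run from 17.8 CPM per kb for Oosp1 to 2.93 CPM per kb for Oosp2, and the points of neighbouring genes overlap.

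Reads could be divided among near copies to a different extent in these genes. Of the 101-base windows of the longest Oog1 transcript, the length of a read, 76.5% also occur in a transcript of another gene of GENCODE M21, namely C87977, Gm10436, Gm13023 or Gm2042. The share was 22.2% for Oog2 (with Gm13084 and Gm7201), 10.7% for Oog3 (with Gm4350) and 0 for Oog4, the 3 OAS1 genes and the 3 OOSP genes. Levels of Oog1, and less so of Oog2 and Oog3, are therefore uncertain by whatever the authors' counting moved between copies. Longest transcripts of the oogenesins were 75.2% to 80.7% identical to each other over the aligned bases, those of Oas1c, Oas1d and Oas1e 86.2% to 91.1%, and those of the OOSP genes 63.7% to 65.9%. Over shorter windows of 31 bases more was shared: 93.3% of Oog1, 56.2% of Oog2, 26.9% of Oog3 and 2.26% of Oog4, and 22.2%, 22.3% and 25.1% of Oas1c, Oas1d and Oas1e, which share them with each other and with Oas1f and Oas1h. The OOSP genes shared 0 windows at either length.

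Among the near copies of Oog1, Gm2042 has a row under that name in the count table. It measured 18.9, 16.1, 12.8, 17.7 and 18.9 CPM in replicates 1 to 5 at 10 mg/L, against 8.02, 10.4, 13.5, 15.7 and 10.3 CPM in the controls of experiment 2. Oog1 made up 56.1% to 79.9% of the 2 genes' joint level at 10 mg/L and 69.3% to 83.3% in those controls. The share was 64.4% to 77.8% at 500 mg/L, and in the controls of experiment 1 64.0% to 85.3% in 4 mice and 38.7% in replicate 10. In that control replicate Oog1 was at its lowest of all 20 mice, 16.6 CPM, and Gm2042 at its highest, 26.3 CPM. Their joint level was 52.6 ± 17.0 CPM at 10 mg/L and 53.6 ± 6.39 CPM in the controls of experiment 2, and 40.3 ± 10.3 CPM at 500 mg/L and 38.5 ± 8.60 CPM in the controls of experiment 1 (SD, n = 5 each).

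The first comparison asked whether IAA at either dose altered these oocyte transcripts. It did not do so detectably: 0 of the 10 genes passed edgeR's quasi-likelihood test at an adjusted p of 0.05 at 10 mg/L against all 10 controls, where 0.00561% of all tested genes passed, and 0 passed at 500 mg/L, where 0.0112% did. At an unadjusted p under 0.05 the counts were 1 of 10 at 10 mg/L, against 6.22% of all genes, and 0 of 10 at 500 mg/L, against 8.69%. DESeq2, which called 8 genes in all at 10 mg/L and 77 at 500 mg/L, called 0 of the 10 at either dose, as did limma-voom. The exposed mice overlapped the controls in each of the 10, whereas groups were apart in 0.0955% of all genes at 10 mg/L and 0.331% at 500 mg/L. Log2 differences at 10 mg/L were positive in 8 of 10 genes, from −0.14 in Oosp3 to 0.55 in Oosp2, with a median of 0.06 (all genes −0.00). The differences at 500 mg/L were positive in 5 of 10, from −0.32 in Oog2 to 0.31 in Oosp2, with a median of 0.02 (all genes −0.00). Between the doses, 500 against 10 mg/L, 0 of 10 passed (0.0112% of all genes), 0 of 10 had an unadjusted p under 0.05 (10% of all genes), the doses overlapped in all 10 (groups were apart in 2.17% of all genes), and 8 of 10 were negative with a median of −0.05. The last contrast also holds the difference between experiments.

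Each dose was then compared with the 5 water mice studied at the same time. At 10 mg/L 0 of 10 passed (0% of all genes) and 0 had an unadjusted p under 0.05 (6.45% of all genes), and the median log2 difference was −0.10, with 8 of 10 negative. For 500 mg/L, 0 of 10 passed (0% of all genes) and 1, Oosp2, had an unadjusted p under 0.05 (5.19% of all genes), and the median was 0.15, with 8 of 10 positive. The exposed mice overlapped their own controls in all 10 genes at both doses, and groups were apart in 1.04% of all genes at 10 mg/L and 0.932% at 500 mg/L. The 24 oocyte reference genes described below stood at nearly the same medians in these comparisons, −0.11 at 10 mg/L with 20 of 24 negative and 0.15 at 500 mg/L with 23 of 24 positive. The signs of the 10 genes at 10 mg/L thus turned with the choice of controls, from 8 of 10 positive to 8 of 10 negative. A direct test of whether the effects of the doses differed, each against its own controls, called 0 of 10 (0% of all genes) and gave 0 of 10 at an unadjusted p under 0.05 (5.41% of all genes).

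**Figure D2:**
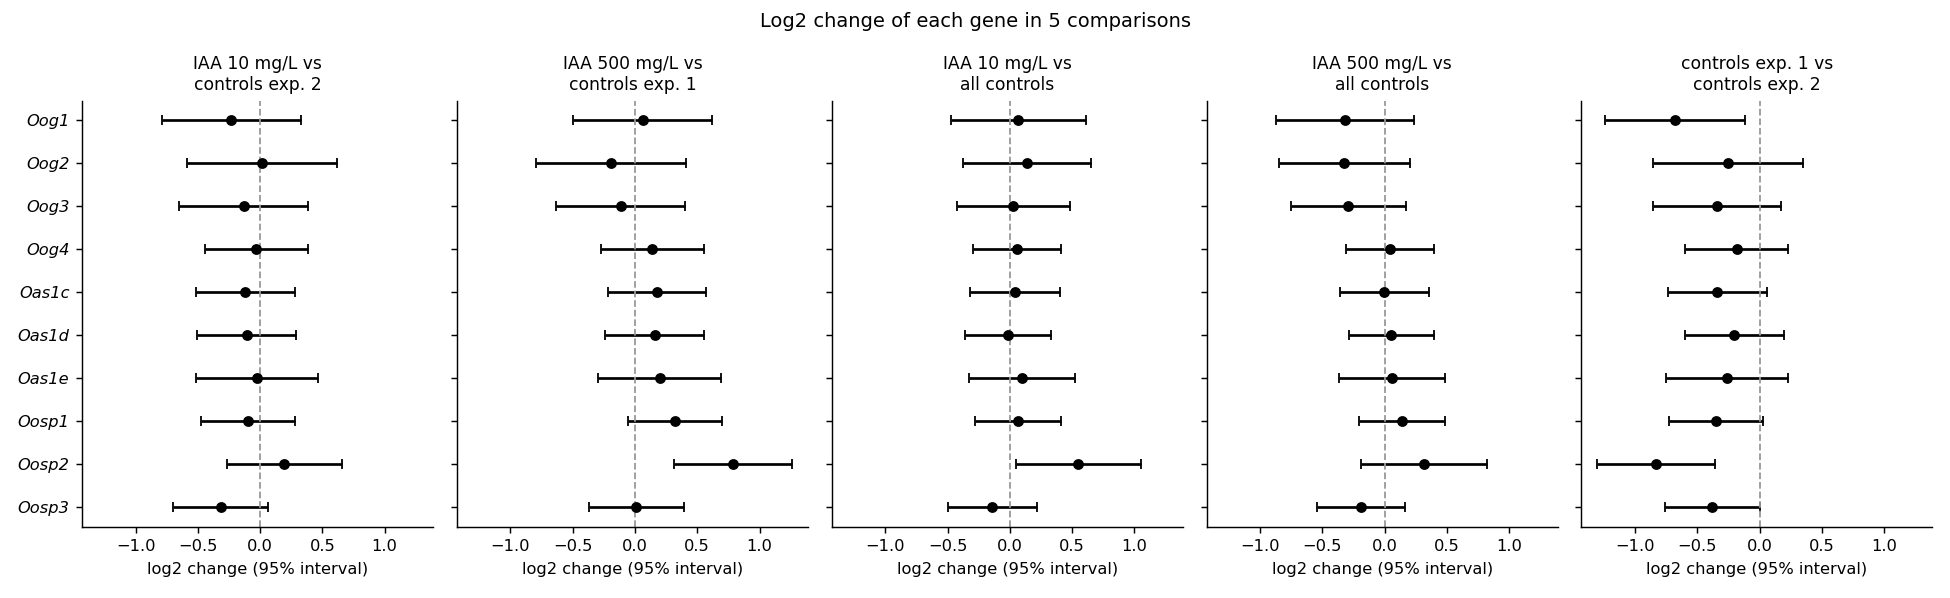
Log2 change of each of the 10 genes (points) with its 95% interval from edgeR (bars), for each dose against its own controls, each dose against all controls, and controls of experiment 1 against controls of experiment 2. Intervals leave 0 out for Oosp2 in 3 of the panels (500 mg/L against its own controls, 10 mg/L against all controls, and between controls), and for Oog1 between the controls.

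Between the control sets themselves, which received water alone, all 10 genes were lower in experiment 1 than in experiment 2. The log2 differences ran from −0.83 in Oosp2 to −0.18 in Oog4, with a median of −0.34 (all genes 0.00). Over all genes edgeR called 0.157%, and of the 10 genes it called 0, while 2, Oosp2 and Oog1, had an unadjusted p under 0.05 (9.78% of all genes). DESeq2, which called 192 genes in all where edgeR called 28, called 1 of 10, Oosp2, and limma-voom called 0 of 10. In Oosp1 and Oosp2 the control sets did not overlap, 2 of 10 genes, against 3.1% of all genes. The 24 oocyte reference genes, among them the growth factor genes Gdf9 and Bmp15 and the zona pellucida genes Zp1, Zp2 and Zp3, were lower as well in 23 of 24 cases, with a median of −0.22, and 0 of 24 passed. In bulk RNA of whole follicles, fewer cells of a type and less RNA per cell cannot be told apart.

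Between mice of a group Oog1, Oog2 and Oog3 varied more than Oog4 and the 3 OAS1 genes. Their coefficients of variation from edgeR were 33.1%, 32.0% and 28.0%, against 22.7% for Oog4 and 26.2% for Oas1e, the highest of the OAS1 genes. These are also the 3 genes whose levels are uncertain because of near copies. Oog1 had 24.2, 64.0, 24.4, 28.0 and 38.1 CPM in replicates 1 to 5 at 10 mg/L, against 39.9, 41.7, 51.0, 35.6 and 41.6 CPM in the controls of experiment 2. At 500 mg/L it had 26.1, 24.3, 30.0, 20.8 and 35.6 CPM, against 39.6, 16.9, 25.2, 32.6 and 16.6 CPM in control replicates 6 to 10 of experiment 1. Replicate 2 at 10 mg/L was the highest of all 20 mice, 3 of the other 4 mice at that dose lay below every control of their experiment, and the 500 mg/L mice lay within the range of theirs. Against own controls the log2 difference was −0.23 (SE 0.27) at 10 mg/L and 0.06 (SE 0.27) at 500 mg/L, where it ranged from −0.07 to 0.25 with 1 mouse left out. Without replicate 2 at 10 mg/L it was −0.54 (edgeR unadjusted p = 0.0301, adjusted p over the 20 fits that leave out 1 mouse from 0.839 to 0.990). Against all controls it was 0.07 (SE 0.26) at 10 mg/L, or −0.25 without replicate 2, and −0.32 (SE 0.26) at 500 mg/L. Between the controls, experiment 1 against experiment 2, Oog1 stood at −0.68 (SE 0.27, edgeR unadjusted p = 0.0199, adjusted p = 0.407), and the sets overlapped in 1 control of experiment 1, replicate 6. That replicate 2 at 10 mg/L also stood apart in RNAs without a poly(A) tail, with 47.2 CPM of Rnu1a1 against at most 0.610 CPM in the other 19 mice, and any part of this in its Oog1 level was not tested.

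Oog2 had 8.15, 16.6, 7.49, 6.23 and 9.96 CPM in replicates 1 to 5 at 10 mg/L, against 10.4, 11.6, 11.7, 9.37 and 4.68 CPM in the controls of experiment 2. Mice at 500 mg/L had 5.50, 6.18, 6.08, 7.47 and 9.81 CPM, against 10.1, 6.18, 4.53, 8.34 and 10.8 CPM in control replicates 6 to 10. Replicate 2 at 10 mg/L was again the highest mouse, and the groups of both experiments overlapped. Log2 differences from own controls were 0.02 (SE 0.29) at 10 mg/L, with −0.26 without replicate 2 and 0.15 without replicate 4, and −0.19 (SE 0.29) at 500 mg/L, with −0.34 without replicate 5 and −0.06 without control replicate 10.

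Oog3 had 22.4, 31.1, 21.1, 25.8 and 28.7 CPM at 10 mg/L, against 27.5, 26.8, 33.0, 34.0 and 20.1 CPM in the controls of experiment 2. Oog3 at 500 mg/L had 8.14, 18.6, 23.2, 20.7 and 32.6 CPM, against 26.8, 15.8, 22.0, 22.0 and 25.0 CPM in control replicates 6 to 10. A single mouse, replicate 1 at 500 mg/L, stood far below all 19 others, whose lowest value was 15.8 CPM. The log2 difference of Oog3 at 500 mg/L was −0.29 (SE 0.22) against all controls, −0.10 without replicate 1 and −0.52 without replicate 5. Against own controls it was −0.11 (SE 0.25), 0.08 without replicate 1 and −0.34 without replicate 5, and at 10 mg/L −0.13 (SE 0.25), −0.05 without control replicate 4 and −0.23 without control replicate 5.

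Oog4, whose transcript shares no read-length window with another gene, varied less. It ranged from 7.52 to 13.1 CPM at 10 mg/L and from 9.23 to 13.2 CPM in the controls of experiment 2, and from 8.51 to 13.9 CPM at 500 mg/L and from 6.27 to 12.8 CPM in the controls of experiment 1. The log2 differences from own controls were −0.03 (SE 0.20) and 0.14 (SE 0.20) at 10 and 500 mg/L, with −0.11 to 0.08 and 0.01 to 0.24 when 1 mouse was left out. Summed, the 4 oogenesins reached 82.1 ± 25.6 CPM at 10 mg/L and 90.9 ± 11.3 CPM in the controls of experiment 2, and 65.8 ± 17.0 CPM at 500 mg/L and 66.3 ± 15.5 CPM in the controls of experiment 1 (SD, n = 5 each). Other PRAME family genes give the setting: of 44 counted, 17 were tested, and 0 passed at either dose. Against all controls 14 of 17 were positive at 10 mg/L (median log2 difference 0.10) and 11 of 17 at 500 mg/L (median 0.03), and 13 of 17 were lower in the controls of experiment 1 than in those of experiment 2 (median −0.43). The 3 with the highest levels, Pramel29, Pramel25 and Pramel12, averaged 29.1, 26.2 and 24.3 CPM over 20 mice.

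The OAS1 genes varied together from mouse to mouse. Oas1d had 24.1, 28.7, 16.9, 23.8 and 29.2 CPM at 10 mg/L, against 22.0, 25.4, 26.8, 35.1 and 23.0 CPM in the controls of experiment 2. At 500 mg/L it had 20.5, 20.9, 31.3, 21.6 and 34.3 CPM, against 26.8, 15.5, 27.1, 19.8 and 25.8 CPM in control replicates 6 to 10. The groups overlapped, and at 500 mg/L replicates 3 and 5 stood above the other 3 mice. Oas1c had 20.1, 29.2, 16.2, 21.1 and 26.5 CPM at 10 mg/L, against 21.5, 22.6, 27.1, 29.4 and 21.9 CPM in the controls of experiment 2. Mice at 500 mg/L had 17.6, 19.0, 27.0, 17.6 and 28.5 CPM, against 22.9, 13.2, 20.4, 16.1 and 24.4 CPM in control replicates 6 to 10, and replicates 3 and 5 at 500 mg/L again stood above the other mice of that dose. Oas1e, the highest of the 3 per kb of longest transcript, ranged from 21.3 to 46.6 CPM at 10 mg/L and from 24.2 to 48.4 CPM in the controls of experiment 2, and from 26.2 to 40.1 CPM at 500 mg/L and from 17.0 to 34.8 CPM in the controls of experiment 1. Log2 differences of the 3 genes from own controls lay between −0.12 and −0.03 at 10 mg/L and between 0.16 and 0.20 at 500 mg/L, with SE from 0.19 to 0.23. These differences depended on single mice: at 500 mg/L Oas1c stood at 0.06 and Oas1d at 0.03 without replicate 5, and Oas1e at 0.07 without control replicate 7 and 0.29 without control replicate 6. At 10 mg/L Oas1c was at −0.22 and Oas1e at −0.20 without replicate 2, and without control replicate 4 Oas1d was at 0.02 and Oas1e at 0.17. Against all controls they lay between −0.01 and 0.10 at 10 mg/L and between −0.00 and 0.06 at 500 mg/L.

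Interferon-stimulated genes and the other OAS genes were counted beside them. Of 19 interferon-stimulated genes, 0 passed at either dose against all controls, and 12 of 19 were positive at 10 mg/L (median log2 difference 0.02) and 10 of 19 at 500 mg/L (median 0.03). Ifi27, an interferon-inducible gene of mitochondria, had the smallest p at 10 mg/L, with 58.4 ± 6.64 CPM there (SD, n = 5) and 44.8 ± 4.34 CPM in all controls (SD, n = 10, log2 0.38, SE 0.07, edgeR adjusted p = 0.237). Between the doses 1 of the 19, Ifi27, passed, lower at 500 than at 10 mg/L, where 0.0112% of all genes passed. That contrast also holds the difference between experiments. Of the 7 other OAS genes tested, 0 passed at either dose, with medians of 0.14 and −0.10. Oasl2, Oas1h and Oasl1 had the highest levels of these, at 12.3, 8.36 and 1.10 CPM over 20 mice.

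Oosp2, the lowest of the 10 genes per kb, had the largest differences of the 10 between 500 mg/L and own controls and between the control sets. At 10 mg/L it had 2.68, 2.74, 1.89, 1.88 and 3.18 CPM, against 2.00, 1.52, 2.75, 2.50 and 2.02 CPM in the controls of experiment 2. At 500 mg/L it had 2.23, 1.88, 1.25, 2.36 and 2.78 CPM, against 1.24, 1.37, 1.12, 1.46 and 0.890 CPM in control replicates 6 to 10. In 4 of 5 mice at 500 mg/L Oosp2 lay above every control of their experiment and in replicate 3 within their range, whereas at 10 mg/L the groups overlapped widely. The log2 difference at 500 mg/L from own controls was 0.79 (SE 0.23, 95% interval 0.32 to 1.26, edgeR unadjusted p = 0.00240), which did not pass over all genes (adjusted p = 0.831), and it ranged from 0.67 to 0.93 when 1 mouse at a time was left out. At 10 mg/L it was 0.19 from own controls (SE 0.22, 95% interval −0.27 to 0.66), and 0.09 without replicate 5 or 0.31 without control replicate 3. The difference between these effects was 0.59 (SE 0.32, edgeR unadjusted p = 0.0753, adjusted p = 0.920). Against all controls Oosp2 stood at 0.55 (SE 0.24, unadjusted p = 0.0331, adjusted p = 0.769) at 10 mg/L and at 0.31 (SE 0.24, adjusted p = 0.761) at 500 mg/L, or 0.19 without replicate 5. The order of the doses thus depended on the controls used.

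The control sets of Oosp2 lay apart. All 5 controls of experiment 1, at 0.890 to 1.46 CPM, lay below the 5 controls of experiment 2, at 1.52 to 2.75 CPM. The log2 difference was −0.83 (SE 0.23, edgeR unadjusted p = 0.00159, adjusted p = 0.185), with a range of −0.93 to −0.73 when 1 mouse was left out. DESeq2 called this difference (adjusted p = 0.0294, log2 −0.83), and over the other 6 alternatives, with no mouse left out, the adjusted p ran from 0.155 to 0.338. The 500 mg/L mice of experiment 1 were at 2.10 ± 0.573 CPM, and their own controls at 1.22 ± 0.222 CPM. The controls of experiment 2 were at 2.16 ± 0.480 CPM (SD, n = 5 each). With 1 dose per experiment, low controls in experiment 1 and a rise at 500 mg/L cannot be told apart. In the authors' deposited table, where the controls are pooled, Oosp2 had signed fold changes of 1.49 at 10 mg/L and 1.30 at 500 mg/L with adjusted p-values of 0.122 and 0.302. None of the 10 genes in the authors' deposited table had an adjusted p under 0.05 in any comparison, where 111, 229 and 289 of 18169 genes did, and the smallest at 500 mg/L was 0.205 for Oog3.

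Oosp1 had 13.9, 21.7, 12.6, 17.5 and 21.6 CPM at 10 mg/L, against 18.5, 17.1, 19.4, 19.9 and 18.6 CPM in the controls of experiment 2. Oosp1 at 500 mg/L had 14.7, 14.1, 19.7, 15.1 and 28.2 CPM, against 16.6, 12.0, 16.3, 13.4 and 15.1 CPM in control replicates 6 to 10. The control sets did not overlap each other, and the exposed mice spanned more than either. The log2 difference at 500 mg/L from own controls was 0.32 (SE 0.18) and 0.11 without replicate 5, at 10 mg/L it was −0.10 (SE 0.18) and 0.01 without replicate 3, and between the controls it was −0.35 (SE 0.18, edgeR unadjusted p = 0.0666, adjusted p = 0.552). Oosp3 ranged from 4.47 to 7.06 CPM at 10 mg/L and from 5.97 to 7.47 CPM in the controls of experiment 2, with 4 of 5 exposed mice below every control (log2 −0.32, SE 0.18, adjusted p = 0.797). Oosp3 at 500 mg/L ranged from 3.89 to 7.53 CPM and in the controls of experiment 1 from 3.67 to 6.07 CPM (log2 0.01, SE 0.18, and −0.17 without replicate 5). Plac1, the placental relative, averaged 3.80 CPM over 20 mice and differed from all controls by 0.04 (SE 0.32) and 0.05 (SE 0.31) at 10 and 500 mg/L.

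**Figure D3:**
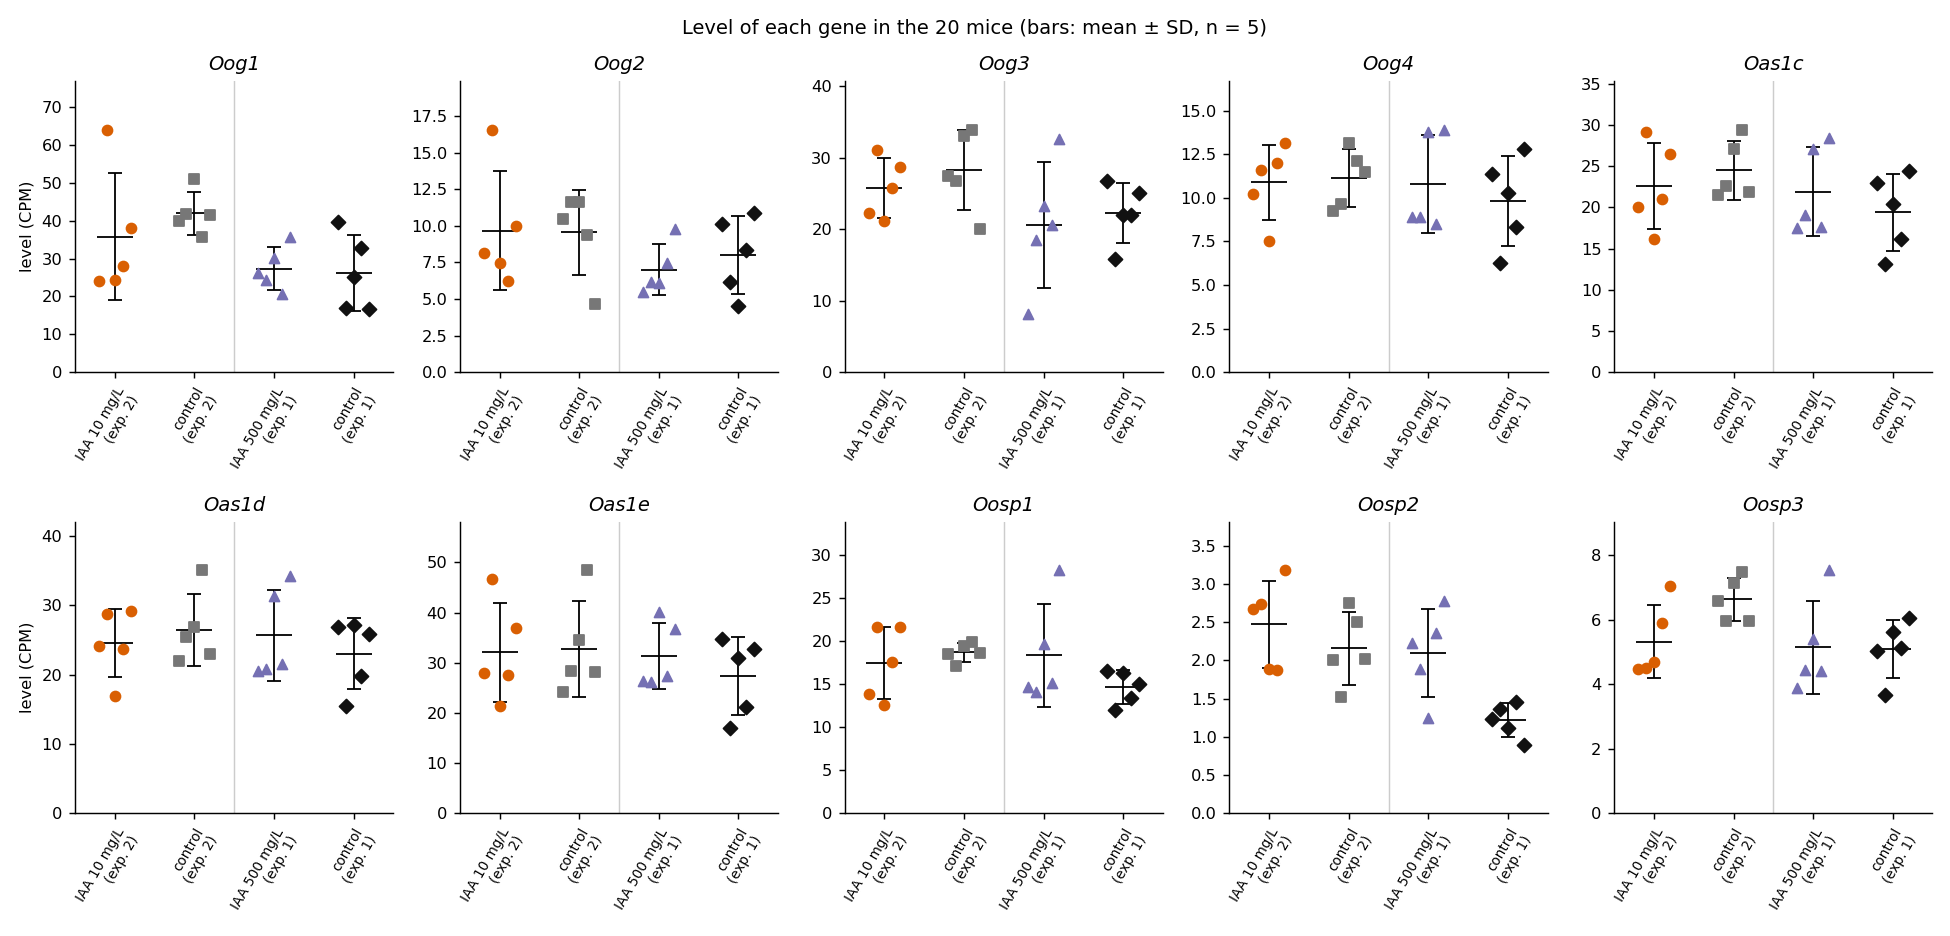
Level of each gene in CPM in the 20 mice, 1 point per mouse, with mean and SD (n = 5) for IAA 10 mg/L and its controls (experiment 2) and for IAA 500 mg/L and its controls (experiment 1). In Oosp2 the controls of experiment 1, at 0.890 to 1.46 CPM, lie below all controls of experiment 2, and in Oog3 replicate 1 at 500 mg/L, at 8.14 CPM, lies below all other mice.

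Because each library mixes 1 oocyte per follicle with other cells, the next comparison asked whether the 10 genes varied between mice together with other oocyte transcripts. The reference level of a mouse was the mean log2 CPM of 24 oocyte genes outside the 3 families. As a geometric mean it ran from 18.8 to 33.5 CPM at 10 mg/L and from 23.6 to 34.7 CPM in the controls of experiment 2, and from 21.4 to 37.8 CPM at 500 mg/L and from 18.7 to 29.0 CPM in the controls of experiment 1, so the mice of each group differed by 1.47 to 1.79 times. Over 20 mice 8 of the 10 genes correlated with it, by a permutation test of Pearson's r (100000 resamples, two-sided, adjusted over the 10 relations). The share of all tested genes that would pass was not counted, so this count has no background to set it against. Transcripts of the oocyte also share its part of each library, so the count describes the genes and tests no common control.

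The OAS1 genes followed the reference level most closely, with Pearson's r of 0.95 for Oas1d, 0.94 for Oas1c and 0.91 for Oas1e (Spearman's rho 0.96, 0.94 and 0.96). Oosp1 had r = 0.92 (rho 0.91) and Oog4 r = 0.90 (rho 0.89). For these 5 genes the permutation p of r was 1e-05, the smallest these resamples can give, and the adjusted p was 2e-05, and the permutation p of rho was 1e-05 for 4 of them and 2e-05 for Oog4. Without the 2 mice farthest from the median reference level r lay between 0.86 and 0.93, and within the experiments between 0.91 and 0.98 (experiment 1) and between 0.87 and 0.97 (experiment 2). The 24 reference genes themselves, each against the mean of the others, had a median r of 0.90, from 0.26 for Dazl to 0.98, so the 5 genes were as close to the level as a typical gene that defines it.

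The other genes followed it less. Oosp3 had r = 0.72 (rho 0.67, permutation adjusted p = 0.0007 for r and 0.00241 for rho), r = 0.66 without the 2 farthest mice, 0.86 within experiment 1 and 0.56 within experiment 2, where it did not pass (adjusted p = 0.116). Oog3 had r = 0.68 (rho 0.77, permutation adjusted p = 0.000483 for r and 0.000317 for rho), r = 0.67 without those mice, and 0.68 and 0.78 within experiments 1 and 2. Oog1 had r = 0.59 (rho 0.53, permutation adjusted p = 0.00756 for r and 0.0213 for rho), r = 0.49 without those mice, and 0.51 and 0.72 within experiments 1 and 2, of which the first did not pass (adjusted p = 0.169). Oog2, with r = 0.41 (rho 0.38, permutation adjusted p = 0.0774 for r and 0.109 for rho), and Oosp2, with r = 0.26 (rho 0.34, permutation adjusted p = 0.261 for r and 0.149 for rho), did not pass. Within experiment 1 Oosp2 had r = 0.02 and within experiment 2 r = 0.54. Oosp2 is also the gene with the fewest reads, and any part of counting error in its lower values was not tested. Oog1 summed with its near copy Gm2042 had r = 0.77 with the reference level (rho 0.75). This sum was chosen after the values were seen, so no p is given for it. It had r = 0.72 without the 2 farthest mice, and 0.86 and 0.82 within experiments 1 and 2, each higher than for Oog1 alone. Gm2042 alone had r = 0.53 with the reference level and −0.05 with Oog1. Whether r of the sum and of Oog1 alone differ was not tested.

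**Figure D4:**
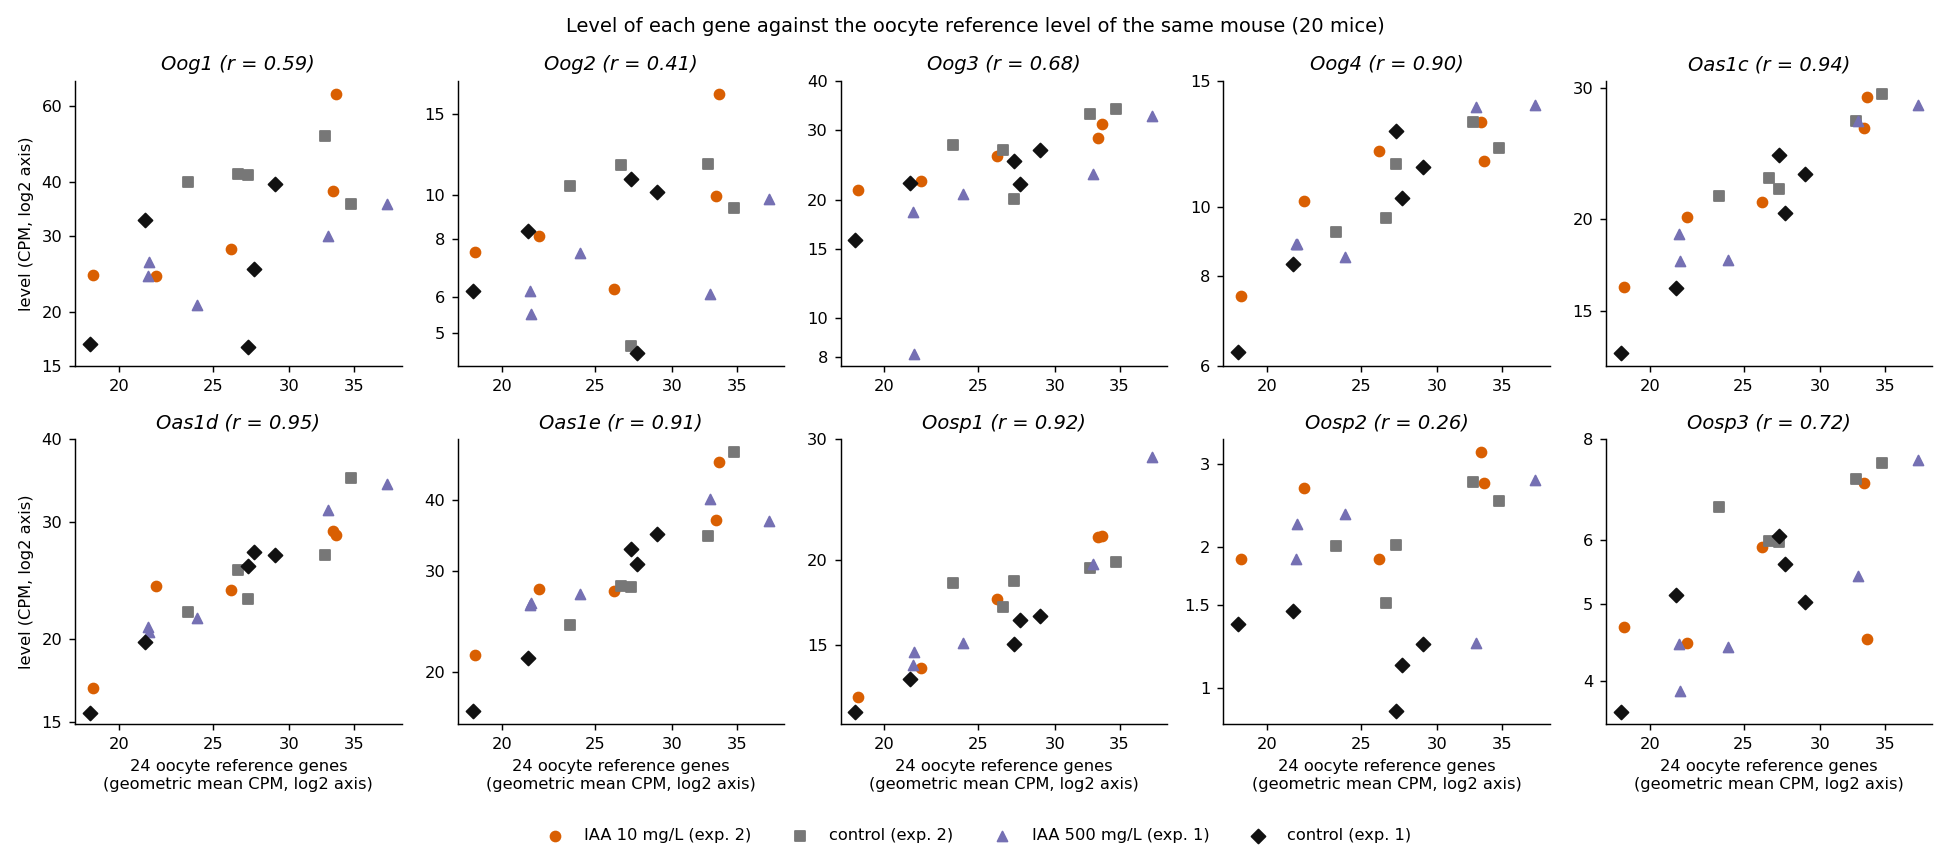
Level of each gene in CPM (vertical, log2 axis) against the reference level of 24 oocyte genes in the same mouse (horizontal, geometric mean CPM, log2 axis), 1 point per mouse, with symbols for IAA 10 mg/L, controls of experiment 2, IAA 500 mg/L and controls of experiment 1. Points lie along a line for Oas1d (r = 0.95) and Oas1c (r = 0.94) and scatter for Oosp2 (r = 0.26).

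Expressed relative to the reference level, that is, as the gene's log2 CPM minus that of the reference genes, the spread over 20 mice shrank to an SD of 0.10 log2 units for Oas1d, where the SD of its level was 0.31. It was 0.11 for Oas1c (0.32), 0.13 for Oosp1 (0.30), 0.14 for Oog4 (0.31) and 0.16 for Oas1e (0.38). For Oosp2 it did not shrink, at 0.51 against 0.50, and for Oog2 it was 0.45 against 0.49, for Oog1 0.41 against 0.50, for Oog3 0.34 against 0.46 and for Oosp3 0.23 against 0.31. On this relative scale the lowest mouse for Oog3 was replicate 1 at 500 mg/L, at −1.21 log2 units from the mean over mice, for Oog1 and Oosp2 control replicate 10, at −0.94 and −1.09, and for Oog2 control replicate 8, at −0.90. Control replicate 10 was the lowest mouse in 3 of the 10 genes (Oog1, Oosp1 and Oosp2) and control replicate 7 in 3 others (Oog4, Oas1c and Oas1e), and the remaining 4 genes each had another lowest mouse.

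**Figure D5:**
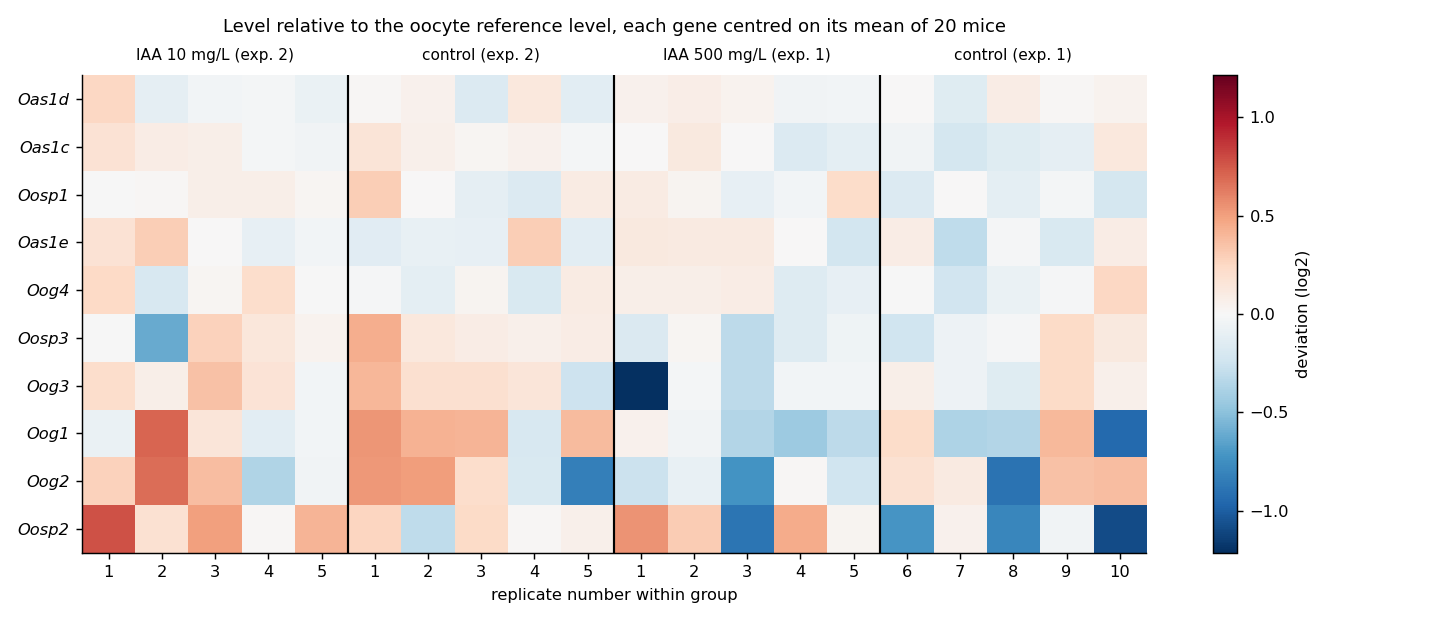
Level of each gene relative to the oocyte reference level (log2 CPM of the gene minus that of the reference, centred on the mean of 20 mice), with genes ordered by their correlation with the reference and mice by group and experiment. Red is above and blue below the gene's mean. The upper rows are pale, with an SD of 0.10 for Oas1d, and the lower rows hold single dark mice, such as replicate 1 at 500 mg/L in Oog3.

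With the reference level added to the edgeR model as a covariate, the difference between the controls of experiment 1 and of experiment 2 was 0.01 in Oas1d (−0.20 without the covariate), −0.01 in Oas1e (−0.26) and 0.01 in Oog4 (−0.18). It was −0.14 in Oas1c (−0.34 without the covariate) and −0.16 in Oosp1 (−0.35). In Oosp2 it was −0.76 (edgeR unadjusted p = 0.00500, adjusted p = 0.273, against 0.0294 to 0.338 over all alternatives) and in Oog1 −0.50 (unadjusted p = 0.0401, adjusted p = 0.472, against 0.243 to 0.626). The difference of Oosp2 at 500 mg/L from own controls was 0.75 in this fit (unadjusted p = 0.00407, adjusted p = 0.975, against 0.335 to 0.975), and 0 of the 10 genes passed in any of the 7 comparisons.

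Pairs of genes within a family were compared by Pearson's r over 20 mice (12 pairs). This comparison was chosen after the values were seen, so no p is given for it. Oocyte transcripts also share the oocyte's part of each library, so these values are descriptions. The 3 OAS1 pairs had r from 0.93 to 0.94, from 0.95 to 0.97 within experiment 1 and from 0.92 to 0.94 within experiment 2. Among the 6 oogenesin pairs r ran from 0.30 for Oog2 and Oog4 to 0.64 for Oog2 and Oog3. Within experiment 1 these pairs ran from 0.19 (Oog1 and Oog2) to 0.58 (Oog2 and Oog3). Within experiment 2 they ran from 0.11 (Oog2 and Oog4) to 0.73 (Oog2 and Oog3). Oosp1 and Oosp3 had r = 0.73, with 0.80 and 0.58 within experiments 1 and 2, while Oosp2 had r = 0.44 with Oosp1 and 0.20 with Oosp3. The r of Oog1 and Oog4 was 0.46 over 20 mice and 0.66 without control replicate 10 and replicate 2 at 10 mg/L, the 2 mice farthest from the median of Oog1. That of Oosp1 and Oosp3 was 0.61 without control replicate 7 and replicate 5 at 500 mg/L, the 2 mice farthest from the median of Oosp1.

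Between mice of a group, edgeR's biological coefficient of variation was 21.6% to 33.1% for the 10 genes, with a median of 24.4%, against a median of 23.0% for the 24 reference genes and 18.0% for all tested genes. Oog1 at 33.1%, Oog2 at 32.0% and Oosp2 at 31.1% had the highest values of the 10, and Oas1d at 21.6% the lowest. Set against tested genes of similar level, the order was another. Of such genes 97.3% varied no more than Oog1, 85.1% no more than Oog2 and 58.9% no more than Oosp2. The share was 85.8% for Oas1d, 92.0% for Oas1e and 46.4% for Oosp3. Of 17800 other tested genes, those whose log2 CPM over 20 mice had the highest Pearson r with the log2 of the summed 10 genes were Nlrp4a (0.96), Nlrp4b (0.95), Accsl (0.95), Gm11545 (0.95), Pramel26 (0.94) and Trim75 (0.94). Pramel26, which carries the run TTCAGCTGAAA printed above in its promoter window, averaged 23.2 CPM. Of the 6 tested genes outside the 10 that carry the run, Pramel32 also had an r of 0.94, and the other 4 had 0.47 (Gm2042), 0.14 (Pik3ip1, at 88.6 CPM), −0.01 (Pramel23) and −0.27 (Gm13404). Pramel26, Pramel32 and Pramel23 are PRAME family genes, as are the oogenesins, and any part of the run in these values was not tested. These values are descriptions, since all of them share libraries and depth.

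Markers of the other cells of the follicle were counted in the same libraries. Granulosa cell markers summed to at least 6803 CPM and theca cell markers to at least 4322 CPM in every mouse, and all 24 oocyte reference genes passed the filter on low counts, so the labelled follicles hold the cells that the label names. The 8 oocyte transcription regulators, such as Figla, Nobox and Lhx8, had 0 called at either dose, with medians of −0.07 at 10 mg/L and 0.04 at 500 mg/L against all controls. Among them Sohlh1, a helix-loop-helix factor of young oocytes, had the smallest p, at −0.16 (SE 0.28) at 10 mg/L and −0.55 (SE 0.28, edgeR adjusted p = 0.595) at 500 mg/L. Endothelial markers were positive in 8 of 8 at 10 mg/L against all controls (median 0.34, 0 passed, 6 at an unadjusted p under 0.05), where they summed to 348 to 510 CPM, against 279 to 449 CPM in all controls. Luteal markers summed to 652 to 3150 CPM at 10 mg/L and to 389 to 1555 CPM in the controls of experiment 2, and to 577 to 1325 CPM at 500 mg/L and to 508 to 3724 CPM in the controls of experiment 1. Leukocyte markers were higher in 8 of 8 in the controls of experiment 1 than in those of experiment 2 (median 0.49), at 113 ± 54.0 CPM and 76.5 ± 15.7 CPM in sum (SD, n = 5 each). Their part in the differences of the 10 genes was not tested.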

How the data were processed

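Poly(A) RNA of antral follicles from 20 mice was sequenced with a stranded mRNA kit at 101 cycles, per the labels' protocols. The authors deposited estimated counts per gene, and the submitters' processing notes name Salmon 1.2.0, FastQC 0.11.8, R 4.1.2, edgeR, limma and the build GRCm39. The authors' deposited table gives log2 average expression, signed fold changes (a score: the ratio, or minus its inverse where lower), and p-values raw and adjusted, over pooled controls.

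Estimated counts were rounded. Genes were kept by filterByExpr (17810 of 39253) and scaled by TMM, and tested with edgeR 4.0.16's quasi-likelihood test (R 4.3.3), adjusted by Benjamini-Hochberg over all tested genes at 0.05, in a fit by group (controls pooled) and a fit by group and experiment. CPM use TMM-scaled totals, and log2 CPM for correlations a prior count of 2. Alternatives used DESeq2 1.42.0, limma 3.58.1, other filters and scaling, a replicate block, the oocyte reference level as covariate, and each mouse left out. Correlations used scipy 1.17.1 and alignments Biopython 1.88. Transcript lengths and shared windows came from GENCODE M21 and promoters from RefSeq, both GRCm38, so they may differ from the authors' annotation. The edgeR steps were tested on simulated counts.

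The 10 genes and all gene lists were chosen with earlier results of these data known. All 10 are named. Of each marker list the genes named with values are among the 3 with the smallest p (others are named as examples of a list's content, and Gm2042 and the genes with the shared promoter run were chosen after their values were seen), of the other PRAME and OAS genes the 3 with the highest mean CPM, and of genes most like the summed 10 the first 6. No pair of libraries within a group agreed within sampling noise. The labels give 1 mouse per library, so p-values measure the spread between mice.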

Additional observations from a re-analysis of the deposited data

How the results depend on the processing

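Of the log2 differences of the 10 genes under the alternatives that leave out no mouse, 505 stayed within 1 SE of the main fit and on their side of the threshold. A further 14 moved by more, and 1 passed a threshold that it had missed. Counts of genes called are not among these values. With 1 mouse left out 1390 stayed and 10 moved. The exception among the counts of calls was DESeq2, which called 1 of the 10 genes, Oosp2, between the controls of experiment 1 and of experiment 2, where edgeR and limma-voom called 0. Leaving out 1 mouse at a time gave 0 of the 10 genes called in every fit of the 7 comparisons. Counts over all genes depended more on the method. At 10 mg/L against all controls they were 1 with edgeR, 8 with DESeq2 and 0 with limma-voom, no filter, the replicate block or the covariate. At 500 mg/L they were 2, with 77 by DESeq2, 0 by limma-voom and 17 with the block, and between the doses 2, with 97, 0 and 8. Against own controls edgeR gave 0 and DESeq2 31 at 10 mg/L and 5 at 500 mg/L, and 0 and 12 for the difference. Between controls edgeR gave 28, DESeq2 192, no filter 11, a filter of 1 CPM 48 and a fit on those groups alone 9, and without 1 mouse edgeR gave 3 to 50. Mice share replicate numbers across groups, but same-numbered mice did not deviate together (correlations −0.17 to 0.11 for 10 mg/L and controls, 0.00 to 0.08 for 500 mg/L and controls, −0.12 to 0.23 between doses), so the numbers were not taken as pairs. The fit with that replicate block called 0 of the 10 genes. Control replicates 6 to 10 share no number with exposed mice, so this fit set both doses against control replicates 1 to 5, all of experiment 2. Its values at 500 mg/L therefore also hold the difference between experiments. At 10 and 500 mg/L it gave 0.17 and −0.08 for Oosp2, −0.30 and −0.63 for Oog1 (edgeR unadjusted p = 0.0157 at 500 mg/L, adjusted p = 0.280), −0.15 and −0.54 for Oog3 and −0.35 and −0.41 for Oosp3 (edgeR unadjusted p = 0.0311 at 500 mg/L, adjusted p = 0.347). The fit without the block, against all controls, gave 0.55 and 0.31, 0.07 and −0.32, 0.03 and −0.29, and −0.14 and −0.19. No paired analysis was possible because no numbers are shared between the mice at 500 mg/L and their own controls or between the control sets. Within experiment 1 Oog1 and within experiment 2 Oosp3 no longer passed the correlation with the reference level, and 7 genes passed in each, against 8 over 20 mice, 8 with a prior count of 0.5 and 8 without the 2 farthest mice. Depth limits Oosp2 most, with 44 to 146 reads.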
